A study of Mus musculus with 20 samples.

Results

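The Slc25 family holds the mitochondrial carriers, the membrane proteins that pass metabolites, nucleotides and cofactors across the inner mitochondrial membrane. Its RNA was followed here in bone marrow-derived macrophages (BMDMs) of WT and Mcu-/- mice. The member rule used the gene symbol and the counts, and it was set with earlier results of these data known. A symbol had to start with Slc25a, and its row had to reach at least 10 counts in 3 or more of the 20 libraries. Of 47 such rows in a count table of 21963 gene entries, 38 met the rule, and all 38 also passed the filter of the tests. The libraries fell into 5 groups, namely 4 of untreated WT, 5 of WT given zymosan for 3 h, 4 of WT loaded with BAPTA-AM and given zymosan for 3 h, 4 of untreated Mcu-/-, and 3 of Mcu-/- given zymosan for 3 h. Zymosan is a particle made from yeast cell wall and was given at 2 particles per cell, and BAPTA-AM, used at 10 µM, is a calcium chelator made to pass cell membranes. Marrow donors were aged 15 to 25 weeks. The Mcu-/- cells came from mice with a floxed Mcu and a Cre recombinase driven by Cx3cr1, so the deletion depends on where and how completely that Cre acted. The labels call the libraries biological replicates without naming the mice, so p-values measure the spread between these libraries.

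Carriers of this family share a fold of repeated modules and mostly work as exchangers, each with its own substrates. Through them leave citrate for acetyl-CoA and lipid synthesis, aspartate for the malate-aspartate shuttle, and ATP for the cytosol, and through them enter phosphate, iron, glutathione, acylcarnitines, NAD and other cofactors. A few carriers have EF-hands, calcium-binding loops that face the space between the membranes and sense cytosolic calcium. Mcu, the pore of the mitochondrial calcium uniporter, is a separate channel that brings calcium into the matrix. Macrophages that meet microbial particles change how they use citrate, succinate and itaconate, and most of these must pass a carrier.

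Just inside the rule stood Slc25a47 with 7 libraries at 10 counts or more, Slc25a18 with 14 and Slc25a42 with 19, while the other 35 members reached that count in all 20. Slc25a47 ranged from 0 to 12 counts per library and met the count in 3 of the 5 groups, and Slc25a18 met it in 4, so their changes rest on few reads. Neither met it in Mcu-/- with zymosan, where they had at most 4 and 9 counts. They are members only through other groups, so lower values in that group are not independent of the rule. Just outside stood Slc25a29, a carrier of basic amino acids, with 1 library at 12 counts. The rows Slc25a2, Slc25a21, Slc25a27, Slc25a31, Slc25a34, Slc25a41, Slc25a48 and Slc25a54 never reached 10 counts, and Slc25a31, the ADP/ATP carrier known from testis, had the highest count among them, 6. Per kilobase of exons, as RPKM in untreated WT, Slc25a5 led with 309 ± 9.15 (SD, n = 4), which was 37.8% of the members' summed RPKM. Slc25a4 followed with 87.5 ± 1.11 RPKM, then Slc25a3 with 65.4 ± 0.118, Slc25a11 with 55.9 ± 0.976, Slc25a10 with 47.8 ± 3.09 and Slc25a39 with 44.9 ± 0.593. The levels of Slc25a10 and Slc25a39 lay within 1 SD of Slc25a10 of each other, and the other steps in that order exceeded the SDs. Slc25a47 closed the order with 0.0688 ± 0.0184 RPKM.

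Total counts per library ran from about 14420400 to 23954600. Mcu lay at 6.10 to 9.55 CPM (CPM stands for read counts relative to library size, here scaled by TMM, edgeR's trimmed mean of M-values) in the 13 WT libraries and at 2.63 to 4.05 CPM in the 7 Mcu-/- libraries, without overlap. Untreated Mcu-/- replicate 4 stood apart from the other 3: its mean chi-square per gene was 209 to 217 in its replicate pairs, against 1.60 to 6.20 in the 28 other pairs. Genes of the mitochondrial genome took 0.555% of its counts and 0.499% to 0.621% in Mcu-/- with zymosan, against 1.15% to 1.55% in the other 16 libraries. The 7 macrophage markers summed to 8358 CPM in replicate 4 and to 9075 to 9343 CPM in Mcu-/- with zymosan, but to 13121 CPM or more elsewhere. That list did not move as one: the mean CPM in WT and in Mcu-/- with zymosan was 8183 and 3242 for Lyz2, 4920.1 and 2839.9 for Adgre1 and 869 and 275 for Itgam, yet 309 and 1158 for Cd68, 212 and 573 for Fcgr1, 562 and 1079.8 for Csf1r and 60.6 and 75.99 for Mertk. The 4 fibroblast markers summed to 25.3 CPM in replicate 4 and 40.5 to 49.3 CPM in Mcu-/- with zymosan, and to at most 5.00 CPM elsewhere, with Dcn at 0 in untreated WT. The higher sum lay in Col1a1 (2.03 and 21.7 CPM in WT and Mcu-/- with zymosan) and Col1a2 (2.19 and 23.2 CPM), while Pdgfra (0.143 and 0.111 CPM) and Dcn (0.138 and 0.286 CPM) stayed low. Endothelial markers summed to 25.9 CPM in replicate 4, 25.9 to 27.7 CPM in Mcu-/- with zymosan and 37.9 CPM or more elsewhere, which lay in Pecam1 (41.9 and 15.4 CPM in WT and Mcu-/- with zymosan), as Cdh5 (1.37 and 7.05 CPM) and Kdr (3.05 and 4.68 CPM) had higher means in Mcu-/-. Neutrophil markers summed to 0.159 CPM in replicate 4, 0.497 to 0.765 CPM in Mcu-/- with zymosan and 2.33 to 5.27 CPM in WT, while T cell, erythroid and dendritic cell markers stayed under 1 CPM everywhere. These levels move with the comparison of the genotypes under zymosan, and their part in the results below was not tested. In bulk RNA, fewer cells of a type and less RNA per cell cannot be told apart.

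For a view of the sequence upstream, 4 members were chosen because their levels split the genotypes under zymosan and because a RefSeq promoter was at hand. With BAPTA-AM none of them had an edgeR adjusted p under 0.05 over all 20 libraries, and Slc25a25 had 0.000693 without untreated Mcu-/- replicate 4. The promoters are shown 1 by 1. Each runs from 250 bases before the annotated start to 50 after it, written 5′ to 3′ on the gene's strand in build GRCm38.p6, with matches to the motifs searched in capitals. The Slc25a28 promoter (mitoferrin 2) lies at chr19:43674832-43675131 on the minus strand and holds CCAAT 187, 176 and 43 bases before the start. The Slc25a10 promoter (dicarboxylate carrier) lies at chr11:120491587-120491886 on the plus strand, with a κB match on the reverse strand from 30 bases before the start and a CCAAT match on the reverse strand 41 bases after it. The Slc25a4 promoter (ADP/ATP carrier ANT1) lies at chr8:46211013-46211312 on the minus strand and holds CCAAT 112 and 56 bases before the start. The Slc25a25 promoter shown (ATP-Mg/phosphate carrier SCaMC-2) is 1 of 3, at chr2:32424017-32424316 on the minus strand, inside the gene, and holds TGACGTCA, the cAMP response element, 150 bases before that start and a reverse CCAAT 78 bases before it.
Slc25a28: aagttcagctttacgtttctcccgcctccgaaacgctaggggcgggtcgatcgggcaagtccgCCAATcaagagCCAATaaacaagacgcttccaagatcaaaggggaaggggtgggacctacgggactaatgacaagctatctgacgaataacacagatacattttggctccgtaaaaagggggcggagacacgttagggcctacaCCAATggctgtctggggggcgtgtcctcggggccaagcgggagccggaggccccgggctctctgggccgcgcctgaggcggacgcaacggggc
Slc25a10: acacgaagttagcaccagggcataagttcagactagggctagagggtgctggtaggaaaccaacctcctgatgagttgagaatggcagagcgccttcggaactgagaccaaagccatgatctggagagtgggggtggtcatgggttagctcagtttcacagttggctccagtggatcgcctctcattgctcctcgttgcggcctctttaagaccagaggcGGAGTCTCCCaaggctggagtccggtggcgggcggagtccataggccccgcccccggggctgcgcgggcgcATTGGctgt
Slc25a4: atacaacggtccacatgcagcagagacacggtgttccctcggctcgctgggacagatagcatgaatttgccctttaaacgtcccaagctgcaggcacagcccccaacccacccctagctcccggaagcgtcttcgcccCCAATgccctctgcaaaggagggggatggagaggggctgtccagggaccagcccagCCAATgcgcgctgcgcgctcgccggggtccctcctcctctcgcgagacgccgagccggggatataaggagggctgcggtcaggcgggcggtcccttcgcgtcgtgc
Slc25a25: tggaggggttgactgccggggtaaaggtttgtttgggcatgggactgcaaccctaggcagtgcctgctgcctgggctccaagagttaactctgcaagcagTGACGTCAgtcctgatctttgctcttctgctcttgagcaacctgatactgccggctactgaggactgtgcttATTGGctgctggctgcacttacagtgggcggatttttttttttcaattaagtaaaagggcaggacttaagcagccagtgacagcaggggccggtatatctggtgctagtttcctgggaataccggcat

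Promoters of this kind matched 30 of the 38 members, with 39 start sites, and the 8 without a match included Slc25a26, Slc25a32, Slc25a35, Slc25a37, Slc25a44, Slc25a46 and Slc25a51. CCAAT, on either strand, was in 19 of the 39 member promoters (48.7%) and in 37.4% of all 32817 promoters. CACGTG, an E-box, was in 7 of the 39 (17.9%) and in 7.15% of all, among them those of Slc25a1, Slc25a13, Slc25a33 and Slc25a36. The 19 promoters with CCAAT belong to 16 members and the 7 with CACGTG to 6. Overlapping promoters of Slc25a23 share a CCAAT match and those of Slc25a14 a CACGTG match, so start sites are not independent. TGACGTCA was in the promoters of Slc25a25 and Slc25a36 and in 1.79% of all, TGANTCA (AP-1) in those of Slc25a11 and Slc25a13 and in 7.81% of all, and the κB consensus in those of Slc25a1 and Slc25a10 and in 4.50% of all. The NRF1 consensus was in 1.26% of all promoters and had 0 matches among the members. The motifs do not overlap in these windows, apart from the AP-1 and E-box matches of Slc25a13, which start 130 and 125 bases before its start. A match only says that these letters are present.

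Calls were made across all 11707 genes tested, at an edgeR adjusted p under 0.05. With zymosan in WT, 12 members rose and 13 fell, which is 31.6% and 34.2% of them, while 32.4% and 36.8% of all genes were called in those directions. In Mcu-/- 8 rose and 21 fell (21.1% and 55.3% of the members), against a background of 34.3% and 39.4% of all genes. Between the genotypes with zymosan, Mcu-/- had 7 members higher and 17 lower (18.4% and 44.7%), against 31.8% and 30.3% of all genes. The median log2 fold change in that comparison was −0.15 over the members and 0.02 over all genes, and for zymosan in Mcu-/- it was −0.35 and −0.06. Between the untreated genotypes 0 members were called by edgeR and 0 by the DESeq2 Wald test, 3 had an unadjusted edgeR p under 0.05, and 0.128% of all genes were called higher and 0.222% lower. BAPTA-AM loading raised 6 members and lowered 1, against 6.43% and 6.33% of all genes. The zymosan responses of the genotypes differed for 12 members, 2 with a higher and 10 with a lower response in Mcu-/-, against 15.2% and 20% of all genes.

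Without untreated Mcu-/- replicate 4, the biological coefficient of variation fell from 12.4% to 3.56% and more members were called, over 11666 genes. With zymosan in WT 13 members then rose and 15 fell (background 37.2% and 41.3%), and in Mcu-/- 11 rose and 23 fell (39.2% and 42.4%). Between the genotypes with zymosan 8 were higher and 17 lower (36.4% and 33.7%), and between the untreated genotypes 0 were higher and 1 lower (1.53% and 1.83%). BAPTA-AM then raised 8 members and lowered 5 (15.3% and 16.5%), and the responses differed upward for 7 and downward for 17 (31.0% and 29.3%). Calls gained without it are given below.

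The family's share of all counts was 0.284% ± 0.00199 (SD, n = 4) in untreated WT, 0.232% ± 0.00204 (n = 5) in WT with zymosan, 0.239% ± 0.00109 (n = 4) with BAPTA-AM and 0.172% ± 0.00199 (n = 3) in Mcu-/- with zymosan. In untreated Mcu-/- it was 0.283% to 0.286% in replicates 1 to 3 and 0.221% in replicate 4. On the TMM scale the same members summed to 2300.2 to 2330.3 CPM in untreated WT and 2643 to 2673 CPM in WT with zymosan, so the direction for the sum depends on the scale. With library totals in place of TMM, the median gene changed by −0.54 with zymosan in WT and by −0.58 in Mcu-/-, against −0.04 and −0.06 with TMM, and log2 fold changes of zymosan shift by a like amount. For the genotypes under zymosan the choice mattered less: the median gene was at 0.02 with TMM and −0.04 with totals.

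**Figure D1:**
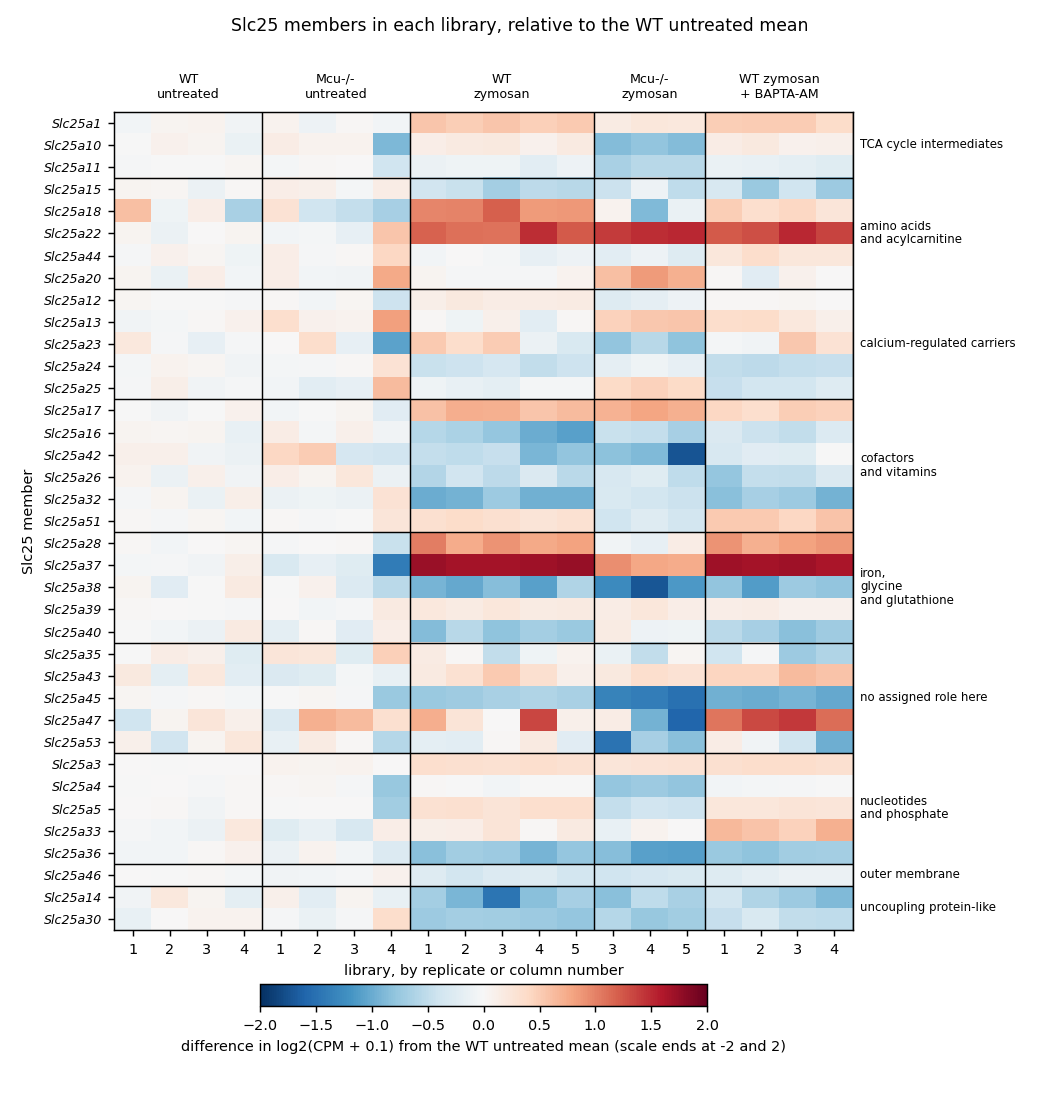
Difference in log2(CPM + 0.1) of 37 of the 38 members (rows, grouped by role) from the untreated WT mean, in each of the 20 libraries (columns, by replicate or column number). Slc25a37 and Slc25a22 are red in every library with zymosan, and the colours of untreated Mcu-/- replicate 4 differ from those of replicates 1 to 3. Under library totals the zymosan responses of Slc25a3, Slc25a5, Slc25a12, Slc25a39, Slc25a43 and Slc25a51 in WT turn downward.

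Among the carriers for iron, glycine and glutathione, the mitoferrins showed the largest split between genotypes. Slc25a37, mitoferrin 1, brings iron into mitochondria for heme and iron-sulfur clusters. In WT, Slc25a37 was at 63.6, 64.2, 62.1 and 70.5 CPM untreated, at 216, 206, 206, 209.8 and 217 CPM with zymosan, and at 211, 205, 210.01 and 202 CPM with zymosan after BAPTA-AM loading. Slc25a37 in Mcu-/- macrophages was at 52.5, 57.9, 54.8 and 24.5 CPM untreated and at 123, 111 and 108 CPM with zymosan. All zymosan libraries lay above all untreated ones, and the Mcu-/- libraries with zymosan lay between the untreated and the WT zymosan libraries. Slc25a37 rose 3.24-fold with zymosan in WT (log2 fold change 1.70 ± 0.16, SE, edgeR adjusted p = 1.34e-08) and 2.41-fold in Mcu-/- (log2 fold change 1.27 ± 0.17, SE, edgeR adjusted p = 2.63e-06; 1.05 ± 0.05 (adjusted p = 3.47e-22) without replicate 4). With zymosan it was lower in Mcu-/- than in WT (log2 fold change −0.88 ± 0.17, SE, edgeR adjusted p = 0.000217). Untreated, the 4 Mcu-/- libraries lay below the 4 WT libraries (log2 fold change −0.45 ± 0.16, SE, edgeR adjusted p = 0.229), and without replicate 4 this was the 1 untreated call, −0.24 ± 0.05 (adjusted p = 0.000957). The difference of the responses was −0.43 (edgeR adjusted p = 0.155) and was called only without replicate 4, at −0.65 ± 0.06 (adjusted p = 7.25e-12). BAPTA-AM loading left Slc25a37 at −0.03 on the log2 scale (edgeR adjusted p = 0.949; approximate 95% interval −0.32 to 0.27).

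Slc25a28, mitoferrin 2, has the same substrate. Slc25a28 measured 13.1, 12.3, 12.97 and 13.2 CPM in the untreated WT libraries, 26.4, 21.6, 24.1, 21.9 and 22.6 CPM in WT with zymosan, and 24.1, 21.2, 22.7 and 23.7 CPM in WT loaded with BAPTA-AM. For Slc25a28 the Mcu-/- libraries held 12.6, 13.01, 13.1 and 9.48 CPM untreated and 12.2, 11.5 and 14.3 CPM with zymosan. The WT zymosan and BAPTA-AM libraries stood above 21 CPM, and every other library stood below 15 CPM. Slc25a28 rose 1.81-fold with zymosan in WT (log2 fold change 0.85 ± 0.09, SE, edgeR adjusted p = 8.47e-08), but its change in Mcu-/- was 0.07 (edgeR adjusted p = 0.528), which turned to −0.45 with library totals. With zymosan it was lower in Mcu-/- (log2 fold change −0.88 ± 0.10, SE, edgeR adjusted p = 1.27e-06), and the responses differed (difference −0.78 ± 0.14 in log2 fold change, SE, edgeR adjusted p = 0.000394).

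Slc25a38 carries glycine for the first step of heme synthesis. In WT, Slc25a38 was at 12.6, 10.3, 12.03 and 13.7 CPM untreated, at 6.32, 5.89, 6.63, 5.64 and 7.98 CPM with zymosan, and at 6.93, 5.51, 7.31 and 6.98 CPM with zymosan after BAPTA-AM loading. Slc25a38 in Mcu-/- macrophages was at 12.02, 12.8, 9.97 and 8.33 CPM untreated and at 4.95, 3.62 and 5.42 CPM with zymosan. Its untreated libraries lay above all zymosan libraries. Slc25a38 fell in WT (log2 fold change −0.90 ± 0.14, SE, edgeR adjusted p = 1.23e-05) and in Mcu-/- (log2 fold change −1.21 ± 0.17, SE, edgeR adjusted p = 3.96e-06), and the zymosan libraries of the genotypes did not overlap (log2 fold change −0.47 ± 0.17, SE, edgeR adjusted p = 0.0194), a call lost without WT zymosan replicate 5 (adjusted p = 0.0514) or Mcu-/- zymosan column 4 (adjusted p = 0.13). Slc25a39 and Slc25a40 are paralogs that import glutathione, the antioxidant tripeptide. Slc25a39 kept to 119 to 145 CPM over all libraries and rose by 0.19 ± 0.04 in WT (edgeR adjusted p = 0.000474) and by 0.14 ± 0.05 in Mcu-/- (edgeR adjusted p = 0.0107), changes that turned to −0.31 and −0.38 with library totals, the second also losing its call without Mcu-/- zymosan column 4 (adjusted p = 0.0739). Slc25a40 measured 9.89, 9.59, 9.12 and 11.2 CPM in the untreated WT libraries, 5.41, 6.72, 5.66, 6.13 and 5.88 CPM in WT with zymosan, and 6.77, 6.22, 5.53 and 6.02 CPM in WT loaded with BAPTA-AM. For Slc25a40 the Mcu-/- libraries held 8.65, 10.1, 8.51 and 10.9 CPM untreated and 11.2, 9.21 and 9.30 CPM with zymosan. The WT libraries with zymosan stood below 7 CPM and the Mcu-/- libraries with zymosan stayed among the untreated ones. Slc25a40 fell in WT (log2 fold change −0.74 ± 0.10, SE, edgeR adjusted p = 1.69e-06), while in Mcu-/- its log2 fold change was 0.06 (edgeR adjusted p = 0.654; −0.46 with library totals). Under zymosan Mcu-/- held more of it than WT (log2 fold change 0.73 ± 0.11, SE, edgeR adjusted p = 1.62e-05), the largest upward log2 fold change of that comparison in the family, and the responses differed (difference 0.79 ± 0.15 in log2 fold change, SE, edgeR adjusted p = 0.000567).

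**Figure D2:**
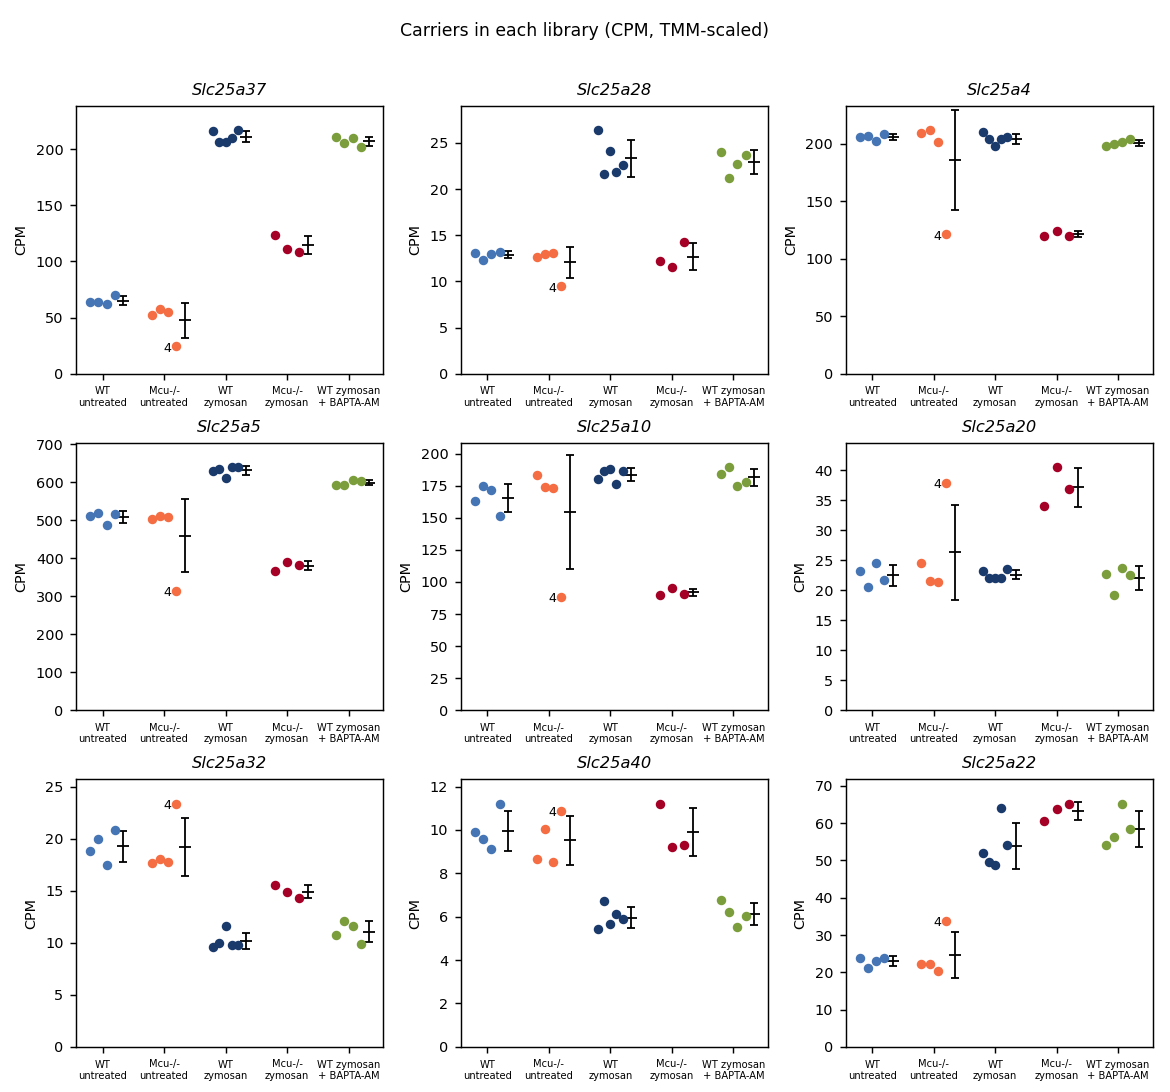
CPM of 9 carriers in each of the 20 libraries (points) by group, with the mean and SD as a bar beside the points; 4 marks untreated Mcu-/- replicate 4. Slc25a37 and Slc25a28 stand highest in WT with zymosan, with or without BAPTA-AM, Slc25a4, Slc25a5 and Slc25a10 stand low in Mcu-/- with zymosan and in replicate 4, and with library totals the rise of Slc25a5 in WT turns to a fall and that of Slc25a20 in Mcu-/- falls to −0.01.

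The nucleotide carriers open with the ADP/ATP carriers, which trade cytosolic ADP for matrix ATP. In WT, Slc25a4 was at 206, 207, 202 and 208 CPM untreated, at 210.01, 204, 198, 204 and 206 CPM with zymosan, and at 198, 200.2, 201 and 204 CPM with zymosan after BAPTA-AM loading. Slc25a4 in Mcu-/- macrophages was at 209.6, 212, 202 and 121 CPM untreated and at 119.98, 124 and 119.6 CPM with zymosan. All WT libraries of Slc25a4 (ANT1) and untreated Mcu-/- replicates 1 to 3 lay at 198 CPM or more, whereas the zymosan-treated Mcu-/- libraries, at 119.6 to 124 CPM, and replicate 4 lay far lower. Slc25a4 was at −0.01 with zymosan in WT (edgeR adjusted p = 0.943), fell in Mcu-/- (log2 fold change −0.62 ± 0.12, SE, edgeR adjusted p = 0.000173; −0.78 ± 0.03 (adjusted p = 2.11e-22) without replicate 4) and was lower in Mcu-/- than in WT with zymosan (log2 fold change −0.75 ± 0.12, SE, edgeR adjusted p = 3.33e-05). Its responses differed (difference −0.61 ± 0.16 in log2 fold change, SE, edgeR adjusted p = 0.00738).

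Slc25a5 measured 512, 518, 486 and 518 CPM in the untreated WT libraries, 631, 635, 610.1, 640.4 and 639 CPM in WT with zymosan, and 593, 594, 607 and 603 CPM in WT loaded with BAPTA-AM. For Slc25a5 the Mcu-/- libraries held 504, 511, 509 and 314 CPM untreated and 367, 390.1 and 382 CPM with zymosan. Slc25a5 (ANT2) was highest in WT with zymosan and lowest in replicate 4 and the zymosan-treated Mcu-/- libraries. It rose in WT (log2 fold change 0.31 ± 0.10, SE, edgeR adjusted p = 0.00767; −0.18 with library totals) and fell in Mcu-/- (log2 fold change −0.27 ± 0.11, SE, edgeR adjusted p = 0.0315). That fall was −0.42 ± 0.03 (adjusted p = 4.23e-15) without replicate 4, and its call was lost without any other Mcu-/- library, with an edgeR adjusted p of at most 0.0946. With zymosan it was lower in Mcu-/- (log2 fold change −0.73 ± 0.11, SE, edgeR adjusted p = 1.74e-05), and the responses differed (difference −0.59 ± 0.15 in log2 fold change, SE, edgeR adjusted p = 0.00527). Of the 50-base stretches of its transcripts, 33.8% also occur in transcripts of other genes, among them Gm5560, Gm5529 and Gm5256, so its counts are uncertain.

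Slc25a3 supplies phosphate for ATP synthesis. In WT, Slc25a3 was at 363, 362, 364 and 363 CPM untreated, at 456, 453, 446, 456 and 449 CPM with zymosan, and at 454, 465, 461 and 453 CPM with zymosan after BAPTA-AM loading. Slc25a3 in Mcu-/- macrophages was at 379.7, 376, 383 and 364 CPM untreated and at 430.1, 440.3 and 445 CPM with zymosan. Each zymosan library stood above each untreated one, and the untreated Mcu-/- libraries stood just above the untreated WT ones. Slc25a3 rose in WT (log2 fold change 0.32 ± 0.03, SE, edgeR adjusted p = 1.16e-08) and in Mcu-/- (log2 fold change 0.22 ± 0.03, SE, edgeR adjusted p = 7.39e-06), and both turned with library totals, to −0.18 and −0.30. Slc25a33 and Slc25a36 carry pyrimidine nucleotides for mitochondrial DNA and RNA. Slc25a33 measured 13.04, 12.8, 12.2 and 15.4 CPM in the untreated WT libraries, 14.5, 14.5, 15.96, 13.5 and 15.1 CPM in WT with zymosan, and 20.8, 19.9, 18.4 and 21.9 CPM in WT loaded with BAPTA-AM. For Slc25a33 the Mcu-/- libraries held 11.2, 11.9, 10.6 and 14.6 CPM untreated and 11.95, 13.96 and 13.4 CPM with zymosan. Slc25a33 stood highest in the 4 loaded libraries, which did not overlap the unloaded ones (log2 fold change 0.46 ± 0.09, SE, edgeR adjusted p = 0.00211), and its zymosan response, 0.14 in WT and 0.12 in Mcu-/-, was not called (−0.35 and −0.40 with library totals). In WT, Slc25a36 was at 70.7, 70.3, 74.4 and 77.5 CPM untreated, at 41.1, 44.9, 44.1, 38.4 and 42.97 CPM with zymosan, and at 43.7, 42.02, 45.3 and 45.8 CPM with zymosan after BAPTA-AM loading. Slc25a36 in Mcu-/- macrophages was at 67.1, 76.6, 70.5 and 60.4 CPM untreated and at 40.5, 34.2 and 34.2 CPM with zymosan. Its untreated libraries lay above all those with zymosan. Slc25a36 fell in WT (log2 fold change −0.79 ± 0.07, SE, edgeR adjusted p = 2.91e-09) and in Mcu-/- (log2 fold change −0.92 ± 0.08, SE, edgeR adjusted p = 4.34e-09), and was lower in Mcu-/- with zymosan (log2 fold change −0.22 ± 0.07, SE, edgeR adjusted p = 0.0153), a call lost without Mcu-/- zymosan column 4 (adjusted p = 0.0797) or column 5 (adjusted p = 0.0849).

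The carriers of tricarboxylic acid cycle intermediates were, all 3, lower in zymosan-treated Mcu-/- than in zymosan-treated WT, beside 30.3% of all genes. Slc25a1 exports citrate, from which cytosolic acetyl-CoA is made. Slc25a1 measured 67.1, 72.4, 72.6 and 65.8 CPM in the untreated WT libraries, 102, 98.1, 102, 96.4 and 99.5 CPM in WT with zymosan, and 97.3, 98.3, 99.1 and 89.9 CPM in WT loaded with BAPTA-AM. For Slc25a1 the Mcu-/- libraries held 72.5, 64.6, 70.9 and 66.7 CPM untreated and 77.9, 81.5 and 79.98 CPM with zymosan. The untreated libraries of both genotypes overlapped, the Mcu-/- zymosan libraries lay above them and the WT zymosan libraries above those. Slc25a1 rose 1.43-fold in WT (log2 fold change 0.52 ± 0.04, SE, edgeR adjusted p = 3.16e-09; 0.03 with library totals, adjusted p = 0.567) and 1.16-fold in Mcu-/- (log2 fold change 0.22 ± 0.05, SE, edgeR adjusted p = 0.000664; −0.31 with library totals). It was lower in Mcu-/- with zymosan (log2 fold change −0.32 ± 0.05, SE, edgeR adjusted p = 2.08e-05), and the responses differed (difference −0.30 ± 0.07 in log2 fold change, SE, edgeR adjusted p = 0.00209). Slc25a10 exchanges malate and succinate for phosphate. In WT, Slc25a10 was at 163, 175, 172 and 151 CPM untreated, at 181, 186, 188, 176 and 187 CPM with zymosan, and at 184, 189.6, 174 and 178 CPM with zymosan after BAPTA-AM loading. Slc25a10 in Mcu-/- macrophages was at 183, 174, 173 and 88.6 CPM untreated and at 90.1, 95.1 and 90.9 CPM with zymosan. Replicate 4 and the 3 Mcu-/- zymosan libraries of Slc25a10 stayed below 96 CPM, and all others lay at 151 CPM or more. It fell in Mcu-/- with zymosan (log2 fold change −0.75 ± 0.16, SE, edgeR adjusted p = 0.0003), was lower there than in WT (log2 fold change −0.996 ± 0.15, SE, edgeR adjusted p = 2.69e-05), and its responses differed (difference −0.90 ± 0.21 in log2 fold change, SE, edgeR adjusted p = 0.00294). In WT its change of 0.15 was not called (edgeR adjusted p = 0.332) and turned to −0.34 with library totals. Slc25a11, the oxoglutarate carrier of the malate-aspartate shuttle, ranged from 100.2 to 121 CPM in WT and from 75.8 to 80.6 CPM in Mcu-/- with zymosan, and replicate 4 had 89.6 CPM. It fell in Mcu-/- (log2 fold change −0.49 ± 0.07, SE, edgeR adjusted p = 7.79e-06), was lower there than in WT (log2 fold change −0.47 ± 0.07, SE, edgeR adjusted p = 2.24e-05), and the responses differed (difference −0.38 ± 0.10 in log2 fold change, SE, edgeR adjusted p = 0.00617).

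The 5 carriers with EF-hands, which are open to cytosolic calcium, did not share a direction. With zymosan the Mcu-/- libraries had 3 of them higher and 2 lower, beside 31.8% and 30.3% of all genes. With BAPTA-AM 0 of 5 were called, beside 6.43% and 6.33% of all genes. Without untreated Mcu-/- replicate 4, Slc25a13 was called higher and Slc25a12 and Slc25a25 lower with BAPTA-AM (background 15.3% and 16.5%). Slc25a12 (aralar) and Slc25a13 (citrin) exchange aspartate for glutamate. Slc25a12 measured 54.9, 53.4, 53.6 and 53.1 CPM in the untreated WT libraries, 58.3, 61.7, 59.8, 59.4 and 60.5 CPM in WT with zymosan, and 54.8, 54.4, 55.2 and 53.95 CPM in WT loaded with BAPTA-AM. For Slc25a12 the Mcu-/- libraries held 54.8, 51.8, 55.4 and 40.5 CPM untreated and 44.98, 47.5 and 50.2 CPM with zymosan. Replicate 4 and the Mcu-/- zymosan libraries of Slc25a12 lay below all others. Slc25a12 was lower in Mcu-/- with zymosan (log2 fold change −0.33 ± 0.07, SE, edgeR adjusted p = 0.000639). Its rise in WT (log2 fold change 0.16 ± 0.07, SE, edgeR adjusted p = 0.0383) turned to −0.33 with library totals and lost its call without any of untreated WT replicates 1 to 4 or WT zymosan replicates 2 to 5, with an adjusted p of at most 0.0783. Loaded libraries lay below unloaded ones (log2 fold change −0.14 ± 0.07, SE, edgeR adjusted p = 0.202; −0.14 ± 0.04 (adjusted p = 0.00522) without replicate 4). In WT, Slc25a13 was at 9.72, 9.88, 10.4 and 10.9 CPM untreated, at 10.4, 9.56, 10.97, 8.76 and 10.4 CPM with zymosan, and at 13.1, 13.2, 11.9 and 10.9 CPM with zymosan after BAPTA-AM loading. Slc25a13 in Mcu-/- macrophages was at 12.9, 10.8, 10.7 and 18.1 CPM untreated and at 14.01, 14.9 and 14.97 CPM with zymosan. Slc25a13 stood highest in replicate 4, and its Mcu-/- zymosan libraries lay above all WT ones. It was higher in Mcu-/- with zymosan (log2 fold change 0.55 ± 0.13, SE, edgeR adjusted p = 0.00175), while its zymosan response was not called in either genotype; in Mcu-/- it was 0.16, or −0.36 with library totals.

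Slc25a23, Slc25a24 and Slc25a25 exchange ATP-Mg for phosphate and so set the adenine nucleotide pool of the matrix. Slc25a23 measured 3.54, 2.97, 2.70 and 2.97 CPM in the untreated WT libraries, 4.39, 3.88, 4.34, 2.79 and 2.44 CPM in WT with zymosan, and 2.93, 2.89, 4.45 and 3.74 CPM in WT loaded with BAPTA-AM. For Slc25a23 the Mcu-/- libraries held 3.03, 3.91, 2.70 and 1.39 CPM untreated and 1.71, 2.03 and 1.69 CPM with zymosan. Replicate 4 lay lowest and the Mcu-/- zymosan libraries below all WT ones. Slc25a23 was lower in Mcu-/- with zymosan (log2 fold change −0.98 ± 0.28, SE, edgeR adjusted p = 0.00536). In WT, Slc25a24 was at 70.9, 77.2, 75.3 and 69.6 CPM untreated, at 53.4, 54.6, 57.8, 52.1 and 54.995 CPM with zymosan, and at 51.9, 50.8, 52.4 and 52.9 CPM with zymosan after BAPTA-AM loading. Slc25a24 in Mcu-/- macrophages was at 71.2, 71.95, 74.1 and 89.4 CPM untreated and at 64.9, 69.1 and 65.5 CPM with zymosan. Zymosan libraries lay below the untreated libraries of the same genotype, and those of Mcu-/- above those of WT. Slc25a24 fell in WT (log2 fold change −0.42 ± 0.06, SE, edgeR adjusted p = 1.92e-06) and in Mcu-/- (log2 fold change −0.20 ± 0.06, SE, edgeR adjusted p = 0.00828; −0.12 ± 0.05 (adjusted p = 0.0132) without replicate 4), and was higher in Mcu-/- with zymosan (log2 fold change 0.28 ± 0.06, SE, edgeR adjusted p = 0.000683). Slc25a25 measured 22.9, 25.2, 22.3 and 22.8 CPM in the untreated WT libraries, 21.9, 20.99, 20.2, 22.7 and 22.6 CPM in WT with zymosan, and 16.8, 18.1, 17.9 and 19.4 CPM in WT loaded with BAPTA-AM. For Slc25a25 the Mcu-/- libraries held 22.5, 20.2, 20.8 and 36.3 CPM untreated and 30.3, 31.9 and 30.5 CPM with zymosan. The WT libraries with BAPTA-AM were the lowest of all for Slc25a25, and replicate 4 was the highest. Slc25a25 was higher in Mcu-/- with zymosan (log2 fold change 0.51 ± 0.13, SE, edgeR adjusted p = 0.00304), and its fall with BAPTA-AM was called only without replicate 4, at −0.26 ± 0.06 (adjusted p = 0.000693) against −0.26 ± 0.13 with it (edgeR adjusted p = 0.205). Its rise with zymosan in Mcu-/- was likewise called only without replicate 4 (0.55 ± 0.06 (adjusted p = 7.32e-10)), where it was 0.31 with that library (edgeR adjusted p = 0.0525). Exons of Naif1 overlap those of Slc25a25 on the other strand by 379 bases, and the strand setting of the counting is not given in the sources used here. Such overlaps were longer for Slc25a37 (473 bases), Slc25a46 (383 bases) and Slc25a35 (1151 bases), and some other members had shorter ones.

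**Figure D3:**
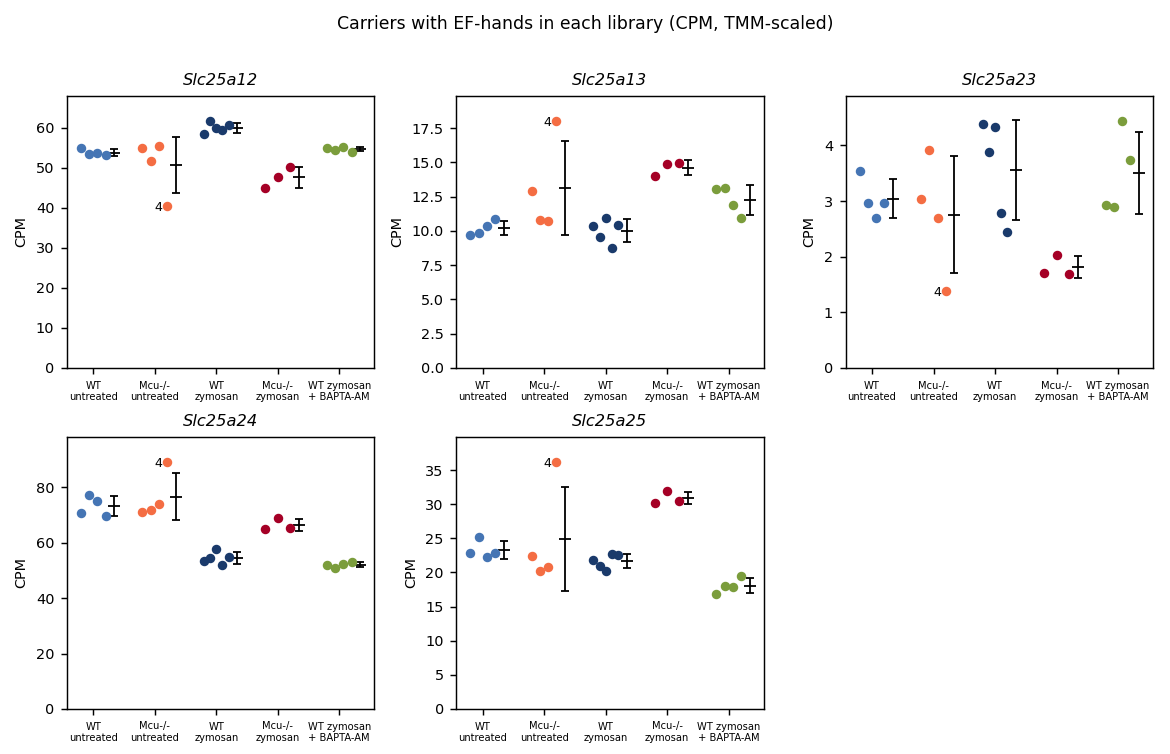
CPM of the 5 carriers with EF-hands in each of the 20 libraries (points) by group, with mean and SD beside the points; 4 marks untreated Mcu-/- replicate 4. In Mcu-/- with zymosan Slc25a13, Slc25a24 and Slc25a25 stand above WT with zymosan and Slc25a12 and Slc25a23 below it; under library totals the small rise of Slc25a12 in WT turns downward.

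Of the carriers for amino acids and acylcarnitine, Slc25a22 changed most with zymosan. It brings glutamate into the matrix. In WT, Slc25a22 was at 23.9, 21.1, 23.1 and 23.95 CPM untreated, at 51.9, 49.6, 48.9, 64.1 and 54.2 CPM with zymosan, and at 54.1, 56.2, 65.3 and 58.5 CPM with zymosan after BAPTA-AM loading. Slc25a22 in Mcu-/- macrophages was at 22.1, 22.3, 20.4 and 33.8 CPM untreated and at 60.6, 63.8 and 65.2 CPM with zymosan. Every zymosan library lay above every untreated one, and replicate 4 was the highest of the untreated. Slc25a22 rose 2.34-fold in WT (log2 fold change 1.22 ± 0.12, SE, edgeR adjusted p = 2.55e-08) and 2.56-fold in Mcu-/- (log2 fold change 1.36 ± 0.13, SE, edgeR adjusted p = 2.56e-08). Its libraries with zymosan overlapped between genotypes (log2 fold change 0.23 ± 0.12, SE, edgeR adjusted p = 0.106), a difference that was called without replicate 4 (0.24 ± 0.06 (adjusted p = 0.000908)). Slc25a18 is the second glutamate carrier. Slc25a18 measured 0.810, 0.467, 0.556 and 0.280 CPM in the untreated WT libraries, 1.08, 1.09, 1.28, 0.986 and 0.998 CPM in WT with zymosan, and 0.747, 0.655, 0.699 and 0.607 CPM in WT loaded with BAPTA-AM. For Slc25a18 the Mcu-/- libraries held 0.629, 0.355, 0.329 and 0.278 CPM untreated and 0.530, 0.226 and 0.448 CPM with zymosan. These levels correspond to 4 to 25 counts per library. Slc25a18 rose in WT (log2 fold change 1.01 ± 0.27, SE, edgeR adjusted p = 0.00245; 0.52 with library totals, adjusted p = 0.0821) and was lower in Mcu-/- than in WT with zymosan (log2 fold change −1.42 ± 0.32, SE, edgeR adjusted p = 0.000889), where the groups did not overlap.

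Slc25a20 brings acylcarnitines in for fatty acid oxidation. In WT, Slc25a20 was at 23.3, 20.5, 24.5 and 21.7 CPM untreated, at 23.2, 22.1, 22.03, 22.1 and 23.6 CPM with zymosan, and at 22.8, 19.2, 23.8 and 22.6 CPM with zymosan after BAPTA-AM loading. Slc25a20 in Mcu-/- macrophages was at 24.5, 21.5, 21.3 and 37.9 CPM untreated and at 34.03, 40.6 and 36.9 CPM with zymosan. The 3 Mcu-/- zymosan libraries and replicate 4 stood above 33 CPM, and all 16 others stood below 25 CPM. Slc25a20 rose in Mcu-/- (log2 fold change 0.50 ± 0.14, SE, edgeR adjusted p = 0.00447; 0.73 ± 0.07 (adjusted p = 8.31e-12) without replicate 4; −0.01 with library totals) and was higher there than in WT with zymosan (log2 fold change 0.72 ± 0.14, SE, edgeR adjusted p = 0.000234). In WT its change was 0.01 (edgeR adjusted p = 0.968; −0.49 with library totals). The difference of the responses was called without replicate 4, at 0.72 ± 0.10 (adjusted p = 3.14e-08), and not with it (edgeR adjusted p = 0.0558). Slc25a44 carries branched-chain amino acids. Slc25a44 measured 25.3, 27.4, 26.5 and 24.4 CPM in the untreated WT libraries, 24.8, 26.1, 25.2, 23.1 and 24.2 CPM in WT with zymosan, and 30.1, 32.96, 30.2 and 30.3 CPM in WT loaded with BAPTA-AM. For Slc25a44 the Mcu-/- libraries held 28.4, 25.6, 26.3 and 34.6 CPM untreated and 22.4, 24.1 and 21.6 CPM with zymosan. It rose with BAPTA-AM (log2 fold change 0.32 ± 0.07, SE, edgeR adjusted p = 0.00583), without overlap between the groups. Slc25a44 fell with zymosan in Mcu-/- (log2 fold change −0.34 ± 0.08, SE, edgeR adjusted p = 0.00139). Slc25a15, the ornithine carrier of the urea cycle, ranged from 5.13 to 9.56 CPM and fell in WT (log2 fold change −0.52 ± 0.10, SE, edgeR adjusted p = 0.000158) and in Mcu-/- (log2 fold change −0.43 ± 0.12, SE, edgeR adjusted p = 0.0025).

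The 7 carriers of cofactors and vitamins held 2 that rose and 4 that fell in WT, and 1 that rose and 6 that fell in Mcu-/-, beside 32.4% and 36.8% of all genes in WT and 34.3% and 39.4% in Mcu-/-. Slc25a17 serves peroxisomes, where it carries CoA, FAD and NAD. In WT, Slc25a17 was at 26.7, 25.4, 26.7 and 28.4 CPM untreated, at 40.4, 44.3, 44.1, 39.5 and 41.8 CPM with zymosan, and at 35.7, 33.9, 37.7 and 36.9 CPM with zymosan after BAPTA-AM loading. Slc25a17 in Mcu-/- macrophages was at 25.8, 26.8, 27.9 and 22.8 CPM untreated and at 43.6, 46.5 and 43.8 CPM with zymosan. Its zymosan libraries lay above all untreated ones. Slc25a17 rose in WT (log2 fold change 0.65 ± 0.06, SE, edgeR adjusted p = 5.86e-09) and in Mcu-/- (log2 fold change 0.79 ± 0.06, SE, edgeR adjusted p = 2.15e-09). It was the 1 member that BAPTA-AM lowered (log2 fold change −0.22 ± 0.06, SE, edgeR adjusted p = 0.0135), a call lost without loaded replicate 2 (adjusted p = 0.0579). Slc25a51 brings NAD into mitochondria. Slc25a51 measured 45.8, 44.3, 46.1 and 43.2 CPM in the untreated WT libraries, 56.1, 58.01, 56.001, 53.6 and 55.2 CPM in WT with zymosan, and 64.2, 64.8, 59.5 and 66.2 CPM in WT loaded with BAPTA-AM. For Slc25a51 the Mcu-/- libraries held 45.7, 44.3, 44.8 and 53.01 CPM untreated and 33.97, 37.4 and 34.6 CPM with zymosan. Loaded libraries lay highest and Mcu-/- zymosan libraries lowest. Slc25a51 rose in WT (log2 fold change 0.32 ± 0.05, SE, edgeR adjusted p = 2.11e-05; −0.18 with library totals), fell in Mcu-/- (log2 fold change −0.41 ± 0.06, SE, edgeR adjusted p = 5.7e-06) and differed between the responses (difference −0.73 ± 0.08 in log2 fold change, SE, edgeR adjusted p = 1.99e-06). With BAPTA-AM it rose further (log2 fold change 0.19 ± 0.05, SE, edgeR adjusted p = 0.017), a call lost without loaded replicate 2 (adjusted p = 0.0526) or replicate 4 (adjusted p = 0.0635).

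Slc25a32 carries folate and FAD. In WT, Slc25a32 was at 18.8, 19.9, 17.4 and 20.8 CPM untreated, at 9.63, 9.98, 11.6, 9.80 and 9.81 CPM with zymosan, and at 10.7, 12.1, 11.6 and 9.91 CPM with zymosan after BAPTA-AM loading. Slc25a32 in Mcu-/- macrophages was at 17.7, 18.02, 17.7 and 23.4 CPM untreated and at 15.5, 14.9 and 14.3 CPM with zymosan. Its Mcu-/- zymosan libraries lay between the untreated libraries and the WT zymosan libraries. Slc25a32 fell in WT (log2 fold change −0.92 ± 0.09, SE, edgeR adjusted p = 2.71e-08) and less in Mcu-/- (log2 fold change −0.36 ± 0.10, SE, edgeR adjusted p = 0.00345), so that it was higher there with zymosan (log2 fold change 0.55 ± 0.10, SE, edgeR adjusted p = 0.000117) and the responses differed (difference 0.56 ± 0.13 in log2 fold change, SE, edgeR adjusted p = 0.00445).

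Slc25a16 and Slc25a42 are linked to coenzyme A. Slc25a16 measured 20.3, 19.98, 20.2 and 17.7 CPM in the untreated WT libraries, 13.1, 12.5, 11.4, 9.80 and 9.15 CPM in WT with zymosan, and 15.9, 14.5, 13.8 and 16.03 CPM in WT loaded with BAPTA-AM. For Slc25a16 the Mcu-/- libraries held 21.7, 19.1, 20.8 and 18.6 CPM untreated and 14.2, 14.02 and 12.2 CPM with zymosan. Slc25a16 fell in WT (log2 fold change −0.80 ± 0.09, SE, edgeR adjusted p = 3.46e-07) and in Mcu-/- (log2 fold change −0.57 ± 0.11, SE, edgeR adjusted p = 0.00011), and BAPTA-AM raised it, without overlap between the groups (log2 fold change 0.43 ± 0.10, SE, edgeR adjusted p = 0.00566). It was also higher in Mcu-/- with zymosan (log2 fold change 0.27 ± 0.10, SE, edgeR adjusted p = 0.0335), though the groups overlapped and the call was lost without WT zymosan replicate 4 or 5, without Mcu-/- zymosan column 3 or 4 (adjusted p of at most 0.123) and with library totals (0.22, adjusted p = 0.0868). In WT, Slc25a42 was at 1.32, 1.31, 1.16 and 1.12 CPM untreated, at 0.854, 0.827, 0.867, 0.602 and 0.665 CPM with zymosan, and at 0.960, 1.04, 1.02 and 1.21 CPM with zymosan after BAPTA-AM loading. Slc25a42 in Mcu-/- macrophages was at 1.66, 1.78, 0.949 and 0.913 CPM untreated and at 0.648, 0.622 and 0.298 CPM with zymosan. Slc25a42 fell in WT (log2 fold change −0.68 ± 0.23, SE, edgeR adjusted p = 0.0146) and in Mcu-/- (log2 fold change −1.36 ± 0.29, SE, edgeR adjusted p = 0.000339), at 6 to 50 counts per library. Slc25a26, the importer of S-adenosylmethionine, ranged from 4.75 to 9.64 CPM and fell in WT (log2 fold change −0.47 ± 0.10, SE, edgeR adjusted p = 0.000424) and in Mcu-/- (log2 fold change −0.44 ± 0.12, SE, edgeR adjusted p = 0.00224).

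Slc25a14 and Slc25a30 resemble the uncoupling proteins, and both fell with zymosan in both genotypes, beside 36.8% of all genes in WT and 39.4% in Mcu-/-. Slc25a14 measured 2.56, 3.14, 2.83 and 2.36 CPM in the untreated WT libraries, 1.65, 1.40, 0.918, 1.48 and 1.66 CPM in WT with zymosan, and 2.08, 1.75, 1.59 and 1.42 CPM in WT loaded with BAPTA-AM. For Slc25a14 the Mcu-/- libraries held 2.92, 2.31, 2.81 and 2.42 CPM untreated and 1.47, 1.87 and 1.69 CPM with zymosan. Slc25a14 fell in WT (log2 fold change −0.94 ± 0.16, SE, edgeR adjusted p = 4.08e-05) and in Mcu-/- (log2 fold change −0.64 ± 0.18, SE, edgeR adjusted p = 0.00446). In WT, Slc25a30 was at 23.999, 26.6, 27.7 and 27.99 CPM untreated, at 15.9, 16.4, 16.3, 15.9 and 15.4 CPM with zymosan, and at 19.2, 21.4, 18.8 and 18.6 CPM with zymosan after BAPTA-AM loading. Slc25a30 in Mcu-/- macrophages was at 25.99, 24.1, 26.1 and 33.7 CPM untreated and at 17.8, 15.7 and 16.4 CPM with zymosan. Loaded libraries lay between the unloaded zymosan libraries and the untreated ones. Slc25a30 fell in WT (log2 fold change −0.73 ± 0.08, SE, edgeR adjusted p = 1.9e-07) and in Mcu-/- (log2 fold change −0.72 ± 0.09, SE, edgeR adjusted p = 1.72e-06), and rose with BAPTA-AM (log2 fold change 0.29 ± 0.08, SE, edgeR adjusted p = 0.03), a call lost without unloaded replicate 1, 4 or 5 or loaded replicate 1 or 2, with an adjusted p of at most 0.113. Slc25a46 sits in the outer membrane and takes part in mitochondrial fusion and fission. Slc25a46 measured 51.96, 51.7, 52.7 and 50.5 CPM in the untreated WT libraries, 43.2, 40.02, 42.7, 43.4 and 40.2 CPM in WT with zymosan, and 43.4, 45.8, 47.7 and 47.5 CPM in WT loaded with BAPTA-AM. For Slc25a46 the Mcu-/- libraries held 49.1, 49.8, 50.9 and 54.9 CPM untreated and 39.03, 40.9 and 41.6 CPM with zymosan. It fell in WT (log2 fold change −0.30 ± 0.04, SE, edgeR adjusted p = 2.7e-06) and in Mcu-/- (log2 fold change −0.34 ± 0.05, SE, edgeR adjusted p = 4.81e-06). Its rise with BAPTA-AM (log2 fold change 0.14 ± 0.04, SE, edgeR adjusted p = 0.0382) was lost without unloaded replicate 2, 3 or 5 or loaded replicate 2, 3 or 4, with an adjusted p of at most 0.114, and the groups overlapped.

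The 5 members given no role here differed among themselves. In WT, Slc25a45 was at 97.4, 92.7, 95.8 and 92.3 CPM untreated, at 56.5, 57.6, 60.3, 62.2 and 60.5 CPM with zymosan, and at 48.6, 47.6, 49.6 and 46.5 CPM with zymosan after BAPTA-AM loading. Slc25a45 in Mcu-/- macrophages was at 93.7, 97.4, 92.7 and 56.7 CPM untreated and at 37.3, 36.2 and 33.4 CPM with zymosan. Slc25a45 fell from over 92 CPM in the untreated libraries, replicate 4 aside, and its Mcu-/- zymosan libraries were the lowest. Slc25a45 fell in WT (log2 fold change −0.67 ± 0.10, SE, edgeR adjusted p = 1.16e-05) and in Mcu-/- (log2 fold change −1.26 ± 0.12, SE, edgeR adjusted p = 3.99e-08), was lower in Mcu-/- with zymosan (log2 fold change −0.74 ± 0.12, SE, edgeR adjusted p = 4.38e-05), and the responses differed (difference −0.59 ± 0.16 in log2 fold change, SE, edgeR adjusted p = 0.00901). Its loaded libraries lay below the unloaded ones (log2 fold change −0.31 ± 0.11, SE, edgeR adjusted p = 0.0665), which was called without replicate 4 (−0.31 ± 0.04 (adjusted p = 1.04e-07)). Slc25a43 measured 6.31, 4.75, 6.38 and 4.71 CPM in the untreated WT libraries, 6.21, 6.77, 7.91, 6.90 and 5.88 CPM in WT with zymosan, and 7.41, 7.42, 8.58 and 8.19 CPM in WT loaded with BAPTA-AM. For Slc25a43 the Mcu-/- libraries held 4.47, 4.62, 5.33 and 4.92 CPM untreated and 6.30, 6.95 and 6.71 CPM with zymosan. Slc25a43 rose in Mcu-/- (log2 fold change 0.46 ± 0.12, SE, edgeR adjusted p = 0.0026; −0.06 with library totals). Its rise in WT (log2 fold change 0.28 ± 0.11, SE, edgeR adjusted p = 0.0295; −0.21 with library totals) was lost without untreated WT replicate 2 or 4 or WT zymosan replicate 3 or 4, with an adjusted p of at most 0.115. In WT, Slc25a53 was at 2.47, 1.74, 2.40 and 2.69 CPM untreated, at 1.99, 1.965, 2.35, 2.63 and 1.94 CPM with zymosan, and at 2.56, 2.18, 1.72 and 1.11 CPM with zymosan after BAPTA-AM loading. Slc25a53 in Mcu-/- macrophages was at 2.07, 2.595, 2.34 and 1.51 CPM untreated and at 0.765, 1.41 and 1.24 CPM with zymosan. Slc25a53 fell in Mcu-/- (log2 fold change −0.89 ± 0.27, SE, edgeR adjusted p = 0.00647) and was lower there than in WT with zymosan (log2 fold change −0.92 ± 0.27, SE, edgeR adjusted p = 0.00613), without overlap. Slc25a35, with 1.33 to 3.21 CPM, was called in none of the 6 comparisons, and 25.05% of its transcripts' 50-base stretches are shared with other genes such as Rangrf. Slc25a47 lay at 0 to 0.699 CPM and was called lower in Mcu-/- with zymosan against untreated Mcu-/- (log2 fold change −1.63 ± 0.64, SE, edgeR adjusted p = 0.0293) and against WT (log2 fold change −1.85 ± 0.63, SE, edgeR adjusted p = 0.0169), calls that at 0 to 12 counts were lost without Mcu-/- zymosan column 4 (adjusted p = 0.0992 and 0.0661) or column 5 (adjusted p = 0.153 and 0.0948), the first also without untreated Mcu-/- replicate 2 (adjusted p = 0.0674) or replicate 3 (adjusted p = 0.06). Its responses differed (difference −2.37 ± 0.79 in log2 fold change, SE, edgeR adjusted p = 0.0276), a call lost without 6 single libraries, with an adjusted p of at most 0.0844, and its value ran from −1.75 without Mcu-/- zymosan column 5 to −3.96 without column 3. Without column 3 the other values were −3.22 and −3.44, and without column 5 they were −1.01 and −1.23.

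**Figure D4:**
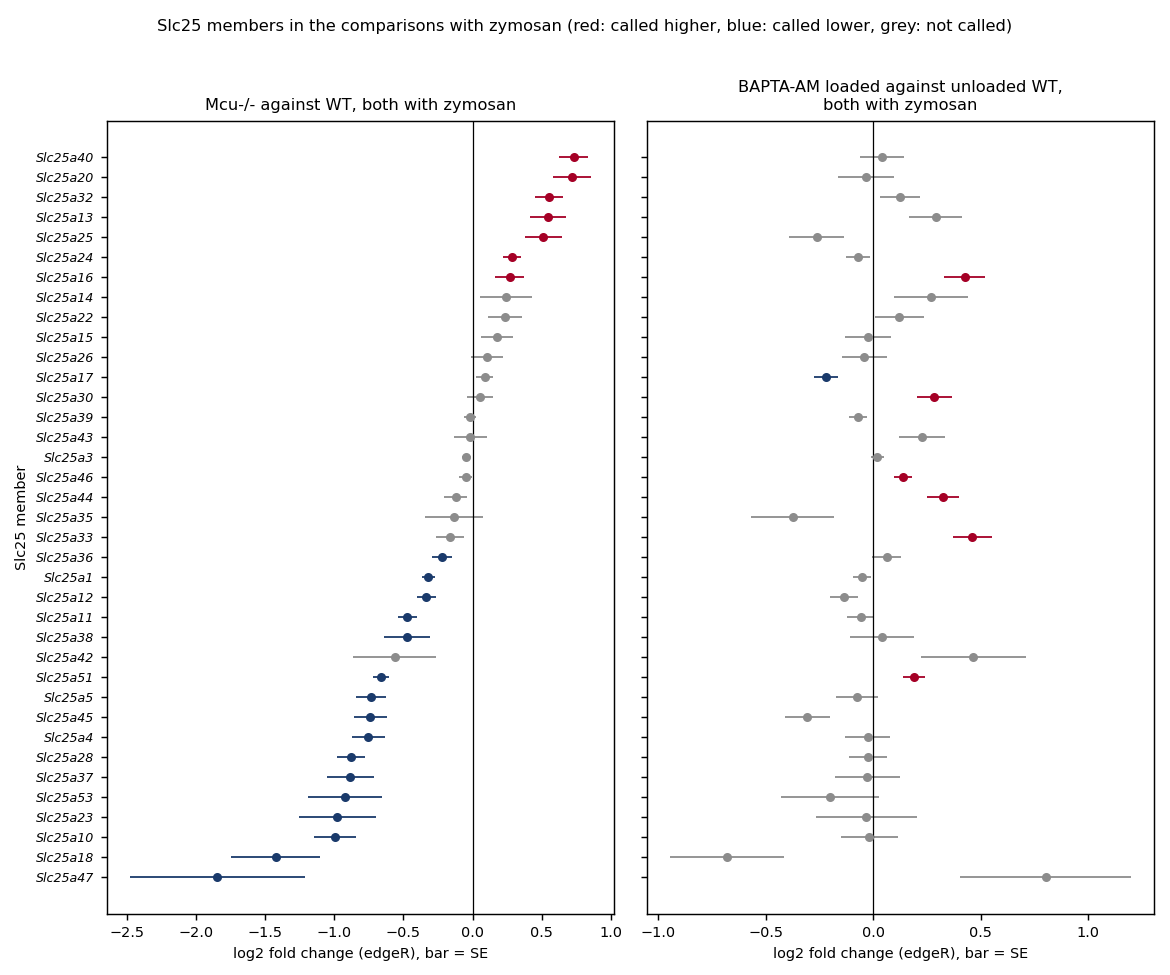
Log2 fold changes (points, edgeR) with SE (bars) of 37 of the 38 members, left for the genotypes under zymosan (Mcu-/- minus WT) and right for the loading with BAPTA-AM in zymosan-treated WT; both panels share the unloaded WT zymosan libraries. On the left 7 members are red (called higher) and 16 blue (called lower), on the right 6 are red and 1 is blue.

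The genotype and BAPTA-AM comparisons share the 5 unloaded WT zymosan libraries, and each comparison's own values are set side by side here. Slc25a33, Slc25a44, Slc25a30, Slc25a46 and Slc25a51 rose with BAPTA-AM, and in Mcu-/- against WT their log2 fold changes were −0.17, −0.12, 0.05, −0.05 and −0.66, of which that of Slc25a51 was called. Slc25a16 was called higher in both. Of the members highest in Mcu-/- with zymosan, Slc25a40, Slc25a20 and Slc25a32 were at 0.04, −0.03 and 0.12 with BAPTA-AM, none called. The mitoferrins, Slc25a10 and Slc25a4 were at −0.03, −0.02, −0.02 and −0.03, none called, with SEs of 0.09 to 0.15. Slc25a18 had the lowest member value with BAPTA-AM, −0.68 ± 0.27 (edgeR adjusted p = 0.107), and was at −1.42 in Mcu-/- against WT, at few reads. Slc25a45 was at −0.31 and −0.74, and Slc25a12 at −0.14 and −0.33, in the same order.

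The untreated Mcu-/- libraries were compared 1 by 1 with the untreated WT mean, since replicate 4 moved with the zymosan-treated Mcu-/- group. Of the 24 members called between the genotypes with zymosan, 21 were shifted the same way in replicate 4, against 13, 8 and 12 in replicates 1, 2 and 3. The median absolute log2 difference over the 38 members was 0.37 in replicate 4 and 0.11, 0.06 and 0.06 in replicates 1 to 3, and 13 members passed 0.5 in replicate 4 against 0, 2 and 1. Slc25a37 was furthest below the untreated WT mean in replicate 4, at −1.40, and Slc25a13 furthest above it, at 0.82. Slc25a40, called with zymosan, was at 0.13 there. Taken from replicate 4, the zymosan response of Mcu-/- lay closer to that of WT for 27 of the 38 members than when taken from replicates 1 to 3, with a median distance of 0.24 against 0.40 on the log2 scale. Taken from replicate 4, that response was 0.002 for Slc25a4, 0.05 for Slc25a10 and −0.03 for Slc25a20. Taken from replicates 1 to 3 it was −0.78, −0.94 and 0.72. The sign differed for Slc25a5 (0.27 against −0.42), Slc25a12 (0.23 against −0.18) and Slc25a25 (−0.23 against 0.54), in the same order. For 11 members the response taken from replicates 1 to 3 was the one closer to WT. Replicate 4 is 1 library, so these responses and distances have no replicate error. Its mitochondrial share and marker sums also lay apart from those of replicates 1 to 3, as given above. The counts here were not repeated over all genes, so whether the shift is particular to the carriers was not tested.

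Further calls were gained without replicate 4. With zymosan in WT Slc25a10 rose, 0.15 ± 0.04 (adjusted p = 0.000231), a change that was −0.34 with library totals over all 20 libraries, and Slc25a11 fell, −0.12 ± 0.03 (adjusted p = 0.00165). In Mcu-/- Slc25a12 fell, −0.18 ± 0.05 (adjusted p = 0.000557), as did Slc25a23, −0.83 ± 0.22 (adjusted p = 0.000806). Slc25a13, 0.35 ± 0.09 (adjusted p = 0.000612), and Slc25a33, 0.22 ± 0.09 (adjusted p = 0.0239), rose there, where library totals over all 20 libraries gave −0.36 and −0.40. With BAPTA-AM Slc25a13 rose, 0.29 ± 0.08 (adjusted p = 0.00572), and Slc25a5 fell, −0.07 ± 0.03 (adjusted p = 0.0219). The response was higher in Mcu-/- for Slc25a25, 0.65 ± 0.09 (adjusted p = 2.06e-08), Slc25a24, 0.30 ± 0.06 (adjusted p = 3.44e-05), Slc25a13, 0.37 ± 0.12 (adjusted p = 0.0083), and Slc25a22, 0.32 ± 0.10 (adjusted p = 0.00488). It was lower for Slc25a23, −1.06 ± 0.27 (adjusted p = 0.00105), Slc25a53, −0.94 ± 0.32 (adjusted p = 0.0105), Slc25a38, −0.41 ± 0.18 (adjusted p = 0.0452), and Slc25a12, −0.34 ± 0.06 (adjusted p = 6.11e-06). The smallest gained differences were those of Slc25a36, −0.19 ± 0.08 (adjusted p = 0.0355), and Slc25a3, −0.11 ± 0.04 (adjusted p = 0.0123).

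**Figure D5:**
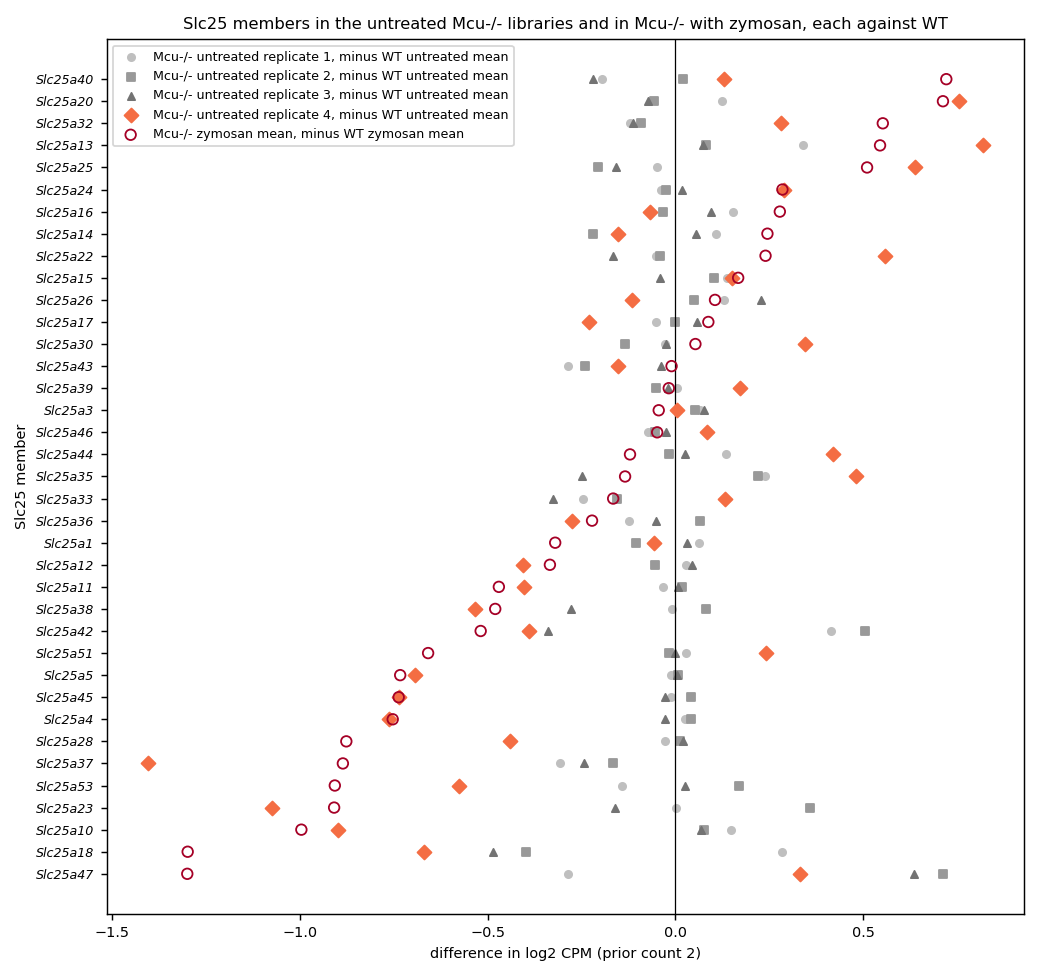
Difference in log2 CPM (prior count 2) of 37 members from the untreated WT mean in the 4 untreated Mcu-/- libraries (filled symbols), and of the Mcu-/- zymosan mean from the WT zymosan mean (open circles). For 20 of the 23 called members drawn, the diamond of replicate 4 lies on the same side of 0 as the open circle. The like share over all genes was not counted. The median absolute differences of replicates 1 to 3 are 0.06 to 0.11.

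Proteins that work beside the carriers were counted on lists of genes, beside a background of 31.8% of all genes higher and 30.3% lower in Mcu-/- with zymosan, and the counts are given as a description only. Of 10 genes for the import of carriers through TIM22, 2 were higher and 2 lower in Mcu-/- with zymosan, among them Tomm70a, the receptor that binds carrier precursors (0.61, edgeR adjusted p = 2.54e-07), and the chaperone gene Timm10b (−0.81, edgeR adjusted p = 0.000178). Of 14 other mitochondrial transporters 3 were higher and 6 lower, with the sideroflexins Sfxn5 at −1.38 (edgeR adjusted p = 4.76e-07), Sfxn2 at −1.06 and Sfxn3 at 0.97. Of the 6 enzymes of the malate-aspartate and glycerol phosphate shuttles 1 was higher and 3 lower. Gpd2, the mitochondrial glycerol phosphate dehydrogenase, rose by 2.46 on the log2 scale with zymosan in WT (edgeR adjusted p = 7.76e-18) and by 1.71 in Mcu-/- (edgeR adjusted p = 5.86e-15), and was at −0.76 in Mcu-/- against WT with zymosan. Of 5 carnitine shuttle enzymes tested 2 were higher and 1 lower in Mcu-/- with zymosan, with Cpt1a, which makes the acylcarnitines that Slc25a20 carries, at 0.96 (edgeR adjusted p = 0.000233). Of 7 citrate and itaconate enzymes 2 were higher and 1 lower, and Acod1, which makes itaconate, rose by 8.17 in WT and 7.41 in Mcu-/- with zymosan without a call between the genotypes. Of 10 genes for iron, heme and cluster assembly 4 were higher and 2 lower in Mcu-/- with zymosan, and in WT 0 rose and 5 fell with zymosan (background 32.4% and 36.8%), Alas1, the first enzyme of heme synthesis, by 0.88 (edgeR adjusted p = 2.16e-09). Of 7 one-carbon and glycine enzymes 3 were higher and 3 lower in Mcu-/- with zymosan, and of the 6 uniporter genes 1 was higher and 3 lower, Mcu among them (−0.82, edgeR adjusted p = 9.61e-05). Of 3 carriers under other symbols, Mtch1 was lower (−0.29). With BAPTA-AM, beside 6.43% and 6.33% of all genes, 0 of the 10 import genes, 0 of the 14 other transporters, 0 of the 5 carnitine enzymes and 0 of the 6 uniporter genes were called. Of the other lists, 2 of 3 carriers under other symbols were lower (Ucp2 −0.17, Mtch1 −0.13) and 2 of 6 shuttle enzymes (Got2 −0.13, Gpd2 −0.22). Of 7 citrate and itaconate enzymes 1 was higher (Me1, 0.44) and 1 lower (Idh1, −0.24), of 10 iron genes 1 was higher and 1 lower (Alas1, −0.24), and of 7 one-carbon enzymes 1 was higher (Mthfd1l, 0.68).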

How the data were processed

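RNA of 20 libraries of bone marrow-derived macrophages was sequenced, and the deposited table held whole-number counts per gene that the authors made with cutadapt, STAR on mm10 and HTSeq, with tool versions and the strand setting not given in the sources used here. Of 21963 gene entries, 25 repeated a symbol. Groups came from the sample labels, and the 3 columns of Mcu-/- with zymosan are called by their column numbers, 3 to 5, while the labels count them from 1. All 20 per-sample columns were used.

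One model was fitted to all 20 libraries with edgeR 4.0.16 in R 4.3.3 (glmQLFit and glmQLFTest, TMM scaling, filterByExpr, 11707 genes), with limma 3.58.1 and an alternative in DESeq2 1.42.0. Benjamini-Hochberg adjusted p under 0.05 over all genes made a call, and SE is the absolute log2 fold change over the square root of F. Intervals at 95% were taken from the SE with a normal quantile. They are approximate and narrower than the F test would give. The 38 members, the role groups and the gene lists were chosen with earlier results of these data known. Every library's value was given for members called and among the 6 largest rises or 6 largest falls of a comparison, where the group with more reached 1 CPM, and for the carriers with EF-hands, Slc25a4, Slc25a5, the mitoferrins, Slc25a1 and Slc25a20. Values of 1 member are not reported here, though counts over the family include it. Other genes were named where called and among the 3 largest changes of their list. Gene models were GENCODE M21, and promoters came from RefSeq on GRCm38.p6.

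The script was tested on simulated data: for Mcu-/- against WT with zymosan, 200 of 200 genes changed by 1 on the log2 scale were recovered among 11176 genes, with 9 false calls. The changed genes had a simulated mean count of at least 50, all genes had the same dispersion, and no library was made to stand apart. The simulation therefore does not cover smaller changes, members at few counts or a library such as untreated Mcu-/- replicate 4. The correlation of same-numbered libraries' deviations ran from −0.055 to 0.059 over 17 pairs. Pairing could not be settled this way, as the labels name no mice and number the Mcu-/- zymosan libraries differently from the columns. In all, 27 settings were tried, listed by their effect in the closing section. Total counts limit the precision of low members, and the comparisons share libraries.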

Additional observations from a re-analysis of the deposited data

Results flagged for a closer look

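Among 152 tests of a group's extreme library (Dixon's criterion), 18 marked a member, where chance flags about 1 in 20 groups. Of these, 12 were untreated Mcu-/- replicate 4. It stood above its group for Slc25a22 (33.8 CPM), Slc25a32 (23.4 CPM), Slc25a25 (36.3 CPM), Slc25a24 (89.4 CPM) and Slc25a51 (53.0 CPM). It stood below it for Slc25a11 (89.6 CPM), Slc25a5 (314 CPM), Slc25a45 (56.7 CPM), Slc25a10 (88.6 CPM), Slc25a4 (121 CPM), Slc25a37 (24.5 CPM) and Slc25a28 (9.48 CPM). The other 6 were spread over 3 groups: untreated WT replicate 3 for Slc25a15 (7.96 CPM), replicate 2 for Slc25a3 (362 CPM) and replicate 4 for Slc25a16 (17.7 CPM), WT zymosan replicate 4 for Slc25a11 (103 CPM) and replicate 3 for Slc25a32 (11.6 CPM), and BAPTA-AM replicate 2 for Slc25a44 (33.0 CPM).

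The zymosan response differed between genotypes for 12 members, of which 11 are given (edgeR, adjusted p under 0.05 for the difference itself). Slc25a40 (0.79) and Slc25a32 (0.56) had a higher log2 response in Mcu-/-. The response was lower for Slc25a1 (−0.30), Slc25a11 (−0.38), Slc25a5 (−0.59), Slc25a45 (−0.59), Slc25a4 (−0.61), Slc25a51 (−0.73), Slc25a28 (−0.78), Slc25a10 (−0.90) and Slc25a47 (−2.37). The last rests on 0 to 12 counts per library and ran from −1.75 without Mcu-/- zymosan column 5 to −3.96 without column 3.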

How the results depend on the processing

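Of the 97 calls among members, 72 held under each of the 27 settings tried. With library totals 4 members rose and 28 fell with zymosan in WT, 3 rose in Mcu-/-, 0 fell with BAPTA-AM and 4 had a higher response in Mcu-/-. That count of higher responses was also 4 with DESeq2 size factors, with at least 10 counts in every library and with the DESeq2 Wald test. The members lowered by BAPTA-AM were 2 with the DESeq2 Wald test and 6 with groups compared alone. Library totals turned the WT zymosan change of Slc25a5 to −0.18, Slc25a39 to −0.31, Slc25a10 to −0.34, Slc25a12 to −0.33, Slc25a33 to −0.35, Slc25a20 to −0.49, Slc25a43 to −0.21, Slc25a51 to −0.18 and Slc25a3 to −0.18. They turned the Mcu-/- change of Slc25a1 to −0.31, Slc25a13 to −0.36, Slc25a39 to −0.38, Slc25a33 to −0.40, Slc25a20 to −0.014, Slc25a43 to −0.062, Slc25a28 to −0.45, Slc25a40 to −0.46 and Slc25a3 to −0.30. These follow the shift of the median gene given above. For the other settings the cause was not tested.

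Leaving out single libraries, 10 to 13 members rose and 13 to 15 fell with zymosan in WT, and 7 to 11 rose and 19 to 23 fell in Mcu-/-. Between genotypes 6 to 8 were higher and 14 to 17 lower with zymosan, and 0 higher and 0 to 1 lower untreated. BAPTA-AM raised 3 to 8 and lowered 0 to 5, the lower ends (3 and 0) without loaded replicate 2. The responses differed upward for 2 to 7 and downward for 9 to 17. The upper ends of these last 2 comparisons, and the 1 untreated call, came without untreated Mcu-/- replicate 4.

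With the replicate number as a block, the counts were 11 and 13, 8 and 19, 7 and 17, 0 and 0, 4 and 1, and 3 and 10, in the order of the comparisons above, so the numbers of the pairing moved BAPTA-AM calls from 6 to 4. Low counts limit Slc25a18, Slc25a42 and Slc25a47.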
